A study of Mus musculus with 9 samples.

Results

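The comparison of Terc heterozygous with wild-type nuclear-transfer embryonic stem cells (ntESCs) rests on 6 of the 9 arrays of the series, 3 labelled Terc+/- and 3 labelled Terc+/+. They were chosen by genotype label alone, and all 25697 probes entered. Terc+/- cells carry 1 functional copy of Terc and Terc+/+ cells carry 2. The 3 Terc-/- arrays, with 0 copies, served to share the estimate of spread and to place the heterozygous levels beside those of cells without the gene. They were also tested against Terc+/-. The means over 9 arrays, used to choose probes, to filter by mean and to centre list scores, include them too. All groups had the C57BL/6 background and were grown without serum, with LIF, on mitomycin-treated embryonic fibroblasts, which were removed after trypsin treatment and before RNA was taken. No drug or other agent separated the groups, and the passage of the cells is not given in the labels. Each genotype is described as 3 biological repeats. Whether these were separate lines or separate cultures is not stated, so p-values measure the spread between these samples, which may be technical.

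Telomerase lengthens chromosome ends by copying a stretch of the RNA encoded by Terc, with the reverse transcriptase Tert and the RNA-binding protein dyskerin (Dkc1) in the same particle. Embryonic stem cells keep telomerase active, and a reduced dose of its RNA is known to limit telomere maintenance in mice and in people. An ntESC is a pluripotent line derived after the nucleus of a body cell is moved into an egg whose own chromosomes were taken out. The comparison asks how the transcriptome differs when 1 copy of Terc is missing.

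The annotation holds no probe of Terc and none of Nanog (0 probes each), so the genotypes rest on the labels. Of 10 stem cell markers, 9 were measured, and the median of their mean log2 signals was 11.12 in Terc+/- and 11.22 in Terc+/+. The defining markers of keratinocytes, mesoderm, trophoblast and neuroectoderm had medians between 5.45 and 6.01 in both genotypes, near the lowest deposited value of 5.11. Of the 6 defining markers of macrophages and blood 3 were measured, with medians of 5.65 in Terc+/- and 5.64 in Terc+/+, and the wider list of this class had brighter members that are described with the lineage genes. The defining markers of endoderm and endothelium had medians between 5.98 and 6.41. Fibroblast markers were clearly present, at medians of 8.59 in Terc+/- and 8.81 in Terc+/+. The array score of the feeder list, which is the mean deviation of its 38 measured markers from their means over the 9 arrays, was 0.84, -0.69 and -0.85 in Terc+/- replicates 1, 2 and 3, and -0.022, 0.90 and -1.17 in Terc+/+ replicates 1, 2 and 3. The genotypes overlapped on this score, and 30 of the 38 markers were lowest in Terc+/+ replicate 3. In bulk RNA, fewer fibroblasts and less fibroblast RNA per cell cannot be told apart. Terc+/+ replicate 3 also stood apart over all probes, with a mean correlation of 0.963 with the other arrays, against 0.978 to 0.986 for each of the other 8. Several values below are therefore given with and without it.

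Under the settings used here, no gene passed the test in Terc+/- against Terc+/+ ntESCs after adjustment for all features. With limma, 0 of 18666 features (0%) had an adjusted p under 0.05, and the smallest adjusted p was 0.105. This count depended on the settings: it was 643 with array quality weights, 187 with the feeder score as a covariate and 28 without Terc+/+ replicate 3. Those settings called 30, 29 and 5 of the 30 leading genes described next. At an unadjusted p under 0.05, 883 features (4.73%) had the higher mean in Terc+/- and 720 (3.86%) the lower mean, or 1603 (8.59%) in either direction. All 3 Terc+/- arrays lay above all 3 Terc+/+ arrays for 1360 features (7.29%) and below them for 990 (5.30%). Among the 9321 features with a mean above 6 over the 9 arrays, these shares were 8.14% and 6.38% at an unadjusted p under 0.05, and 8.43% and 5.91% without overlap. Differences were mostly small. Means lay more than 2-fold apart for 32 features with the higher mean in Terc+/- and 29 with the lower, and 51 of these had an unadjusted p under 0.05. The number of arrays limits the precision, with a median standard error of 0.11 for a log2 difference over all features. It was 0.18 over the features with a mean above 6. Since no gene passed in the fit of all 9 arrays without weights or a covariate, none is called changed. Every gene named below is given by its values. Differences are means of Terc+/- minus Terc+/+ in log2 signal, with the standard error (SE, n = 3 arrays per genotype).

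**Figure D1:**
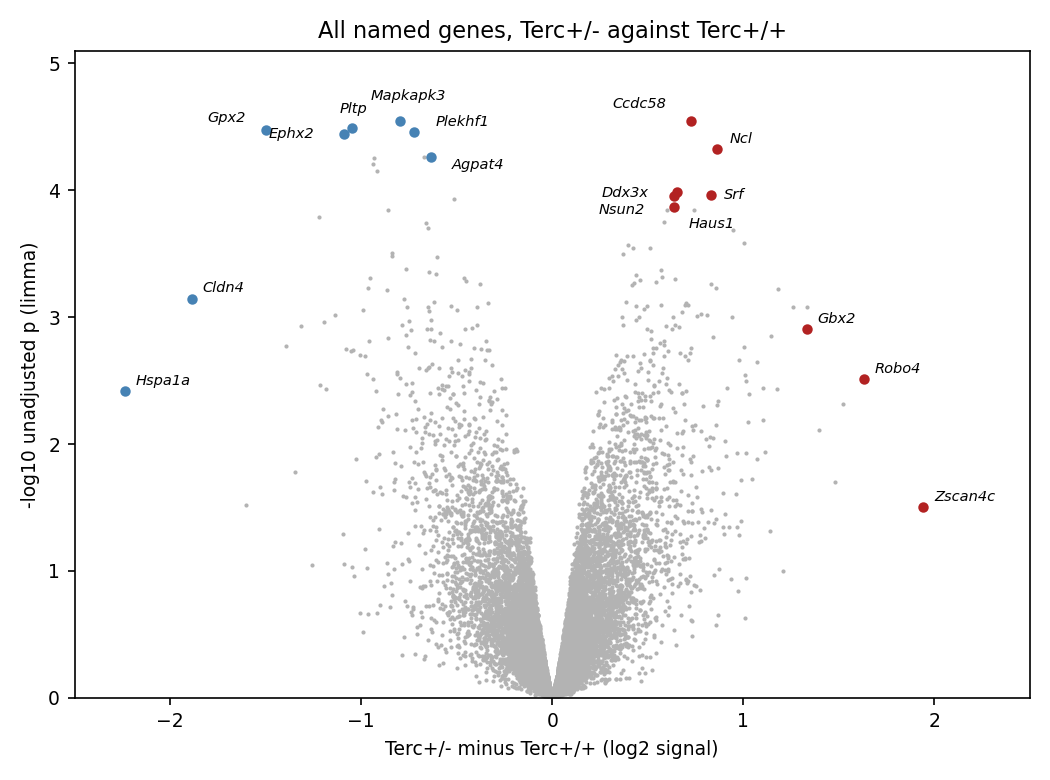
Each point is 1 of 16110 named genes, with the mean log2 signal of Terc+/- minus Terc+/+ on the x axis and the negative log10 of the unadjusted limma p on the y axis. Labelled red points have the higher and labelled blue points the lower mean in Terc+/-, and the smallest adjusted p of the plot is 0.105. Zscan4c and Hspa1a lie farthest out at 1.94 and -2.23, whereas Ccdc58 and Mapkapk3 lie highest.

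The first of the 30 leading genes are from the 15 with the higher mean in Terc+/- and the smallest p. Nucleolin (Ncl), an abundant nucleolar protein that acts in transcription and processing of ribosomal RNA, had log2 signals of 11.01, 10.78 and 10.81 in the Terc+/- arrays, against 10.00, 9.93 and 10.08 in the Terc+/+ arrays. Every Terc+/- array lay above every Terc+/+ array, by more than the spread within either genotype. The mean difference was 0.86 (SE 0.11), 1.82-fold, with an adjusted p of 0.105. A second, dimmer probe of Ncl gave 0.85 (SE 0.13), so both probes placed nucleolin higher in mean by nearly the same amount. Ddx3x, an X-linked RNA helicase that acts in translation, had 10.51, 10.52 and 10.48 in Terc+/-, against 10.00, 9.87 and 9.70 in Terc+/+. The Terc+/- arrays were almost equal to each other and did not overlap with Terc+/+, with a mean difference of 0.65 (SE 0.09, adjusted p = 0.121). Nsun2, which methylates cytosines in transfer RNA, had 7.20, 7.16 and 7.31 in Terc+/- and 6.67, 6.48 and 6.62 in Terc+/+, again without overlap. Its mean difference was 0.64 (SE 0.09, adjusted p = 0.121). Lin28a, an RNA-binding protein of early embryos that blocks the maturation of let-7 microRNAs, had 10.00, 9.90 and 9.95 in Terc+/-, against 9.35, 9.20 and 9.55 in Terc+/+. These arrays did not overlap either. The mean difference was 0.58 (SE 0.09, adjusted p = 0.121), it was 0.67 without Terc+/+ replicate 3 (adjusted p = 0.0289), and a second probe gave 0.30 (SE 0.20).

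The smallest p on the higher side belonged to Ccdc58, a small mitochondrial coiled-coil protein. Its log2 signals were 10.80, 10.55 and 10.79 in Terc+/- and 9.94, 10.03 and 9.99 in Terc+/+, with no overlap and a mean difference of 0.73 (SE 0.09, adjusted p = 0.105). Factors of transcription and chromatin followed. Taf13, a subunit of the general transcription factor TFIID, had 10.13, 9.60 and 9.66 in Terc+/-, against 8.72, 8.84 and 8.99 in Terc+/+. Replicate 1 was the highest Terc+/- array, and the mean difference was 0.95 (SE 0.15, adjusted p = 0.128). Kdm5b, a demethylase of histone H3 lysine 4, differed by 0.60 (SE 0.09), and Morc2a, an ATPase that acts with the HUSH silencing complex, by 0.42 (SE 0.07). Cir1, a corepressor that binds the Notch pathway factor RBPJ, had the largest difference of the 15 at 1.00 (SE 0.16), yet its second probe gave -0.086 (SE 0.13), so the probes of Cir1 disagree. The other genes of the 15 were Haus1, a subunit of the spindle complex augmin (0.64), Cops3, a subunit of the COP9 signalosome (0.37), Cog3, a Golgi tether (0.40), Smim26 (0.74) and Thnsl1 (0.51). The second, dimmer probe of Thnsl1 gave 0.018 (SE 0.08), and the mean of its probes gave 0.27.

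**Figure D2:**
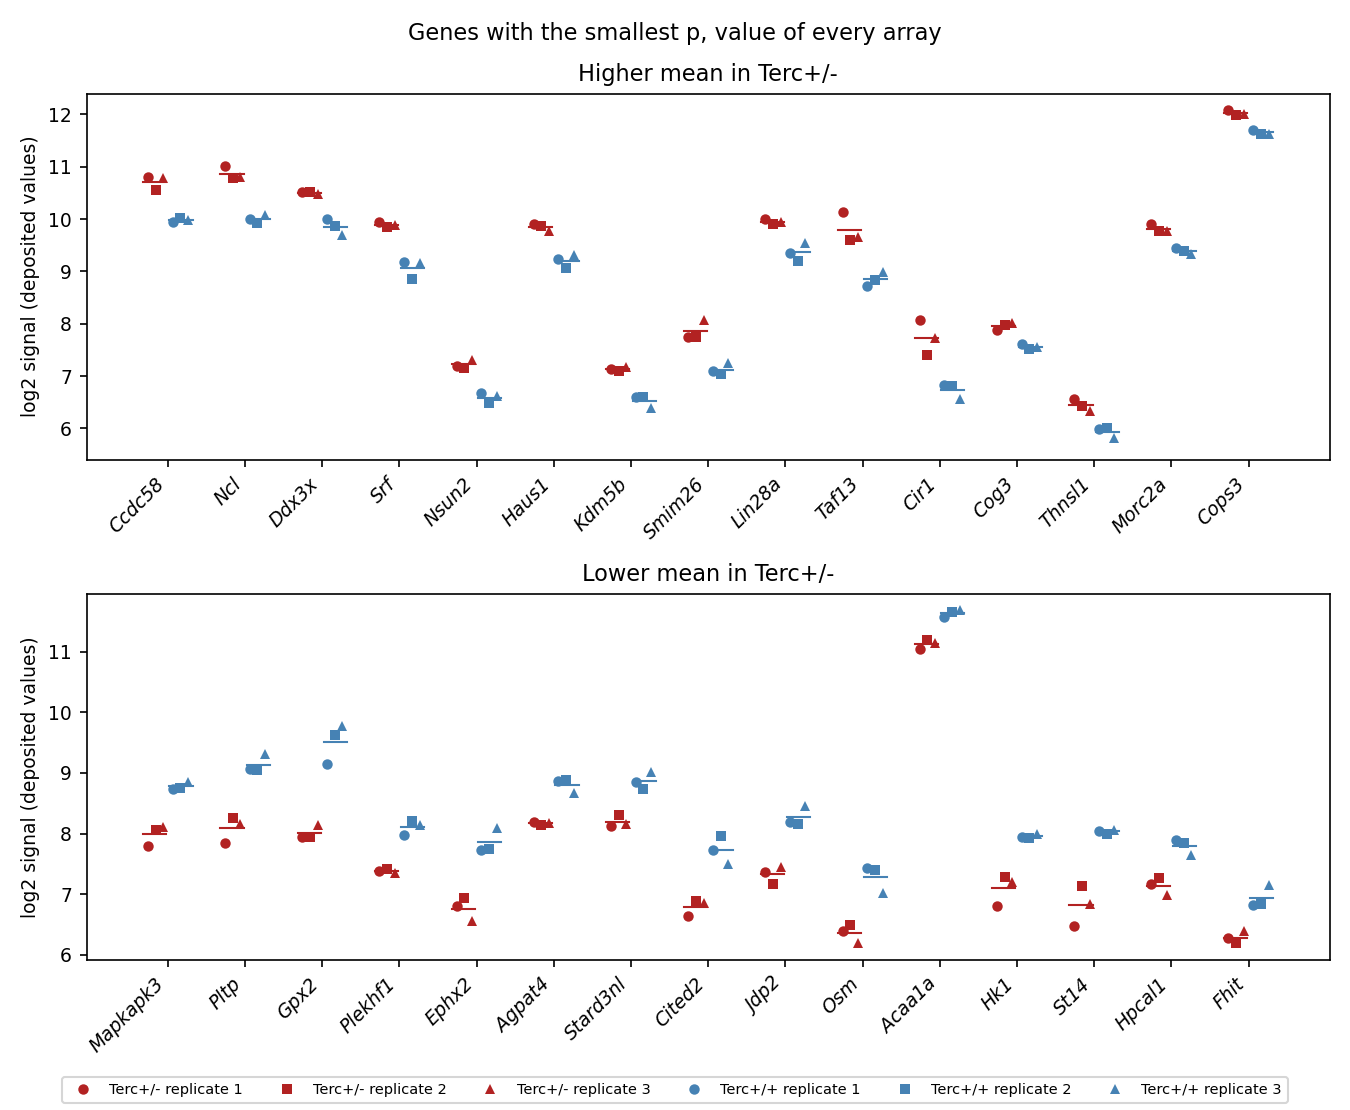
The log2 signal of every array is plotted for the 15 genes of smallest p with the higher mean in Terc+/- (top) and the 15 with the lower mean (bottom). Red points to the left of each tick are Terc+/- arrays and blue points to the right are Terc+/+ arrays, with the marker shape giving the replicate and the line the mean of 3 arrays. The arrays of both genotypes do not overlap in any of the 30 genes, which a choice by smallest p favours.

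Srf codes for serum response factor, which binds CArG boxes in the promoters of immediate early genes and of genes of the actin cytoskeleton, its own among them. Its brightest probe had 9.94, 9.85 and 9.89 in Terc+/-, against 9.18, 8.85 and 9.16 in Terc+/+. The arrays did not overlap, and the mean difference was 0.83 (SE 0.12, adjusted p = 0.121). A second probe, much dimmer, had 6.46, 6.97 and 6.53 in Terc+/- and 7.12, 6.54 and 7.21 in Terc+/+, which overlapped, with a mean difference of -0.31 (SE 0.20). The probes of Srf therefore disagree in sign, and averaging them gave 0.26. The 250 bases before the start of Srf are shown because Srf was the only leading gene with a promoter entry that holds a CArG box. The sequence is from RefSeq, assembly GRCm38.p6, chr17:46556163-46556412, minus strand, printed 5′ to 3′ on the strand of the gene, and the capitals mark both CArG boxes, which begin at positions -82 and -62 relative to the start.
Srf promoter: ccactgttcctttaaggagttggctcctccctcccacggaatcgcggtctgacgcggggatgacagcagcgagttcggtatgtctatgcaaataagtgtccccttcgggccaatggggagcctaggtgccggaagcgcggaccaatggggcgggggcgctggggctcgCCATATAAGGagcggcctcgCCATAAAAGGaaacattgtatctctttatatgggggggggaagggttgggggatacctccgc
The CArG box was searched on both strands from 250 bases before to 50 bases after the start of each gene, and no overlap with another motif was considered. It was found in 488 of 27025 genes with an entry (1.81%). It was found in 1 of the 14 higher genes with an entry and in 0 of the 11 lower ones. Among measured genes with an entry it was found in 8 of 21 actin cytoskeleton targets (38.1%) and in 2 of 18 immediate early genes (11.1%). The 8 actin targets include Srf itself, and Vcl (0.44, SE 0.26), Actg1 (-0.78, SE 1.00) and Cnn2 (-0.37, SE 0.34) lay on both sides of 0. Over all 24 measured actin targets, 11 had the higher and 13 the lower mean in Terc+/-, with a median difference of -0.048, against 0.0042 over all features. That median ran between -0.19 without Terc+/- replicate 1 and 0.14 without Terc+/+ replicate 2. Cofilin (Cfl1), which severs actin filaments, was the other member with an unadjusted p under 0.05 (0.98, SE 0.22), with 8.89, 8.84 and 9.02 in Terc+/- and 8.34, 7.97 and 7.51 in Terc+/+. That threshold was reached by 4.73% of all features with the higher mean and by 3.86% with the lower.

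Among the 15 genes with the lower mean in Terc+/-, Gpx2, a glutathione peroxidase best known from gut epithelium, had the largest difference. Its log2 signals were 7.95, 7.94 and 8.14 in Terc+/-, against 9.14, 9.62 and 9.77 in Terc+/+. The Terc+/- arrays were close together and all below Terc+/+, with a mean difference of -1.50 (SE 0.18, 2.83-fold, adjusted p = 0.105). Ephx2, the soluble epoxide hydrolase, had 6.80, 6.94 and 6.55 in Terc+/- and 7.73, 7.75 and 8.09 in Terc+/+. Its arrays did not overlap, with a mean difference of -1.09 (SE 0.13, adjusted p = 0.105). Pltp, which transfers phospholipids between lipoproteins, had 7.85, 8.26 and 8.16 in Terc+/-, against 9.06, 9.04 and 9.31 in Terc+/+. Again no array of one genotype reached the other, with a mean difference of -1.05 (SE 0.13, adjusted p = 0.105), and a second probe gave -0.48 (SE 0.24). Agpat4, an acyltransferase of phosphatidic acid synthesis, differed by -0.64 (SE 0.08), Acaa1a, a thiolase of peroxisomal fatty acid oxidation, by -0.51 (SE 0.07), and Stard3nl, a protein of contacts between late endosomes and the endoplasmic reticulum, by -0.67 (SE 0.09).

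The other lower genes have varied roles. Mapkapk3, a kinase that acts downstream of p38, had 7.80, 8.05 and 8.11 in Terc+/-, against 8.74, 8.75 and 8.85 in Terc+/+, with a mean difference of -0.80 (SE 0.09, adjusted p = 0.105). Oncostatin M (Osm), a cytokine of the LIF family, had 6.40, 6.49 and 6.20 in Terc+/- and 7.43, 7.39 and 7.02 in Terc+/+. Neither gene's arrays overlapped, and Osm differed by -0.92 (SE 0.12, adjusted p = 0.109), or by -1.05 without Terc+/+ replicate 3 (adjusted p = 0.0211). Cited2, which binds the coactivators CBP and p300, differed by -0.93 (SE 0.12, adjusted p = 0.105), and by -1.05 without Terc+/+ replicate 3 (adjusted p = 0.0237). Jdp2, a repressor that binds AP-1 sites, differed by -0.94 (SE 0.12). Hexokinase 1 (Hk1), which starts glycolysis, had 6.80, 7.28 and 7.20 in Terc+/- and 7.94, 7.92 and 8.00 in Terc+/+, so the Terc+/+ arrays were almost equal and all higher (-0.86, SE 0.13, adjusted p = 0.121). St14, the membrane serine protease matriptase of epithelia, had 6.48, 7.13 and 6.83 in Terc+/-, against 8.04, 8.00 and 8.06 in Terc+/+. Its arrays did not overlap, it differed by -1.22 (SE 0.18, adjusted p = 0.121), and its second probe gave -0.75 (SE 0.24). Plekhf1, an endosomal protein, gave -0.72 (SE 0.09) and -0.70 (SE 0.15) with its probes. Hpcal1, a calcium sensor (-0.66), and Fhit, a hydrolase of diadenosine triphosphate (-0.65), completed the 15. A second probe of Hpcal1 gave -0.31 (SE 0.21). For the 30 leading genes, adjusted p-values lay between 0.105 and 0.160.

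The largest mean differences were less even between arrays than those of the leading genes. Hspa1a, the inducible heat shock protein HSP70, had 6.74, 8.25 and 6.19 in Terc+/-, against 9.37, 9.99 and 8.52 in Terc+/+. The highest Terc+/- array lay just below the lowest Terc+/+ array, and the mean difference was -2.23 (SE 0.56, 4.71-fold, adjusted p = 0.268). Transcripts of its near-identical copy Hspa1b may bind the same probe, so the signal cannot be assigned to 1 copy with certainty. Of the 20 measured heat shock genes, Hspa1a was the only one with an unadjusted p under 0.05, and the list's median was -0.081. This count is near the shares of all features, 3.86% with the lower and 4.73% with the higher mean. Leaving out each array gave 1 to 4 lower and 0 to 3 higher heat shock genes. Cldn4, a tight junction claudin of epithelia, had 8.49, 9.56 and 8.97 in Terc+/- and 10.70, 10.36 and 11.61 in Terc+/+, without overlap. Its mean difference was -1.88 (SE 0.36, adjusted p = 0.184), and -1.52 without Terc+/+ replicate 3. Cbr3, a carbonyl reductase, rested on 1 array: it had 8.86, 8.79 and 9.03 in Terc+/-, and 9.47, 9.86 and 12.17 in Terc+/+. The high array was Terc+/+ replicate 3, a second probe showed the same pattern (-1.61), and the difference was -1.60 (SE 0.61) with that array and -0.77 without it. Dact2, a regulator of Wnt and TGF-beta signalling, differed by -1.40 (SE 0.30).

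On the higher side, Robo4, a receptor of the Roundabout family known from endothelium, had 8.93, 7.94 and 8.43 in Terc+/-, against 7.08, 7.43 and 5.89 in Terc+/+. The lowest array was Terc+/+ replicate 3, and the mean difference of 1.63 (SE 0.39, adjusted p = 0.258) was 1.18 without it. Its other probes, both near the lowest values, gave 0.016 and 0.097. Uqcrb, a subunit of respiratory complex III, had 11.23, 10.14 and 10.24 in Terc+/- and 9.24, 8.47 and 9.34 in Terc+/+, a difference of 1.52 (SE 0.40). The transcription factor Wt1 had 8.35, 7.77 and 7.69 in Terc+/-, against 6.04, 6.04 and 7.54 in Terc+/+. Here Terc+/+ replicate 3 was close to the Terc+/- arrays, and the difference was 1.40 (SE 0.40) with it and 1.90 without it (adjusted p = 0.0289). Gbx2, a homeobox factor that supports naive pluripotency downstream of LIF, had 12.30, 11.17 and 11.86 in Terc+/- and 10.63, 10.45 and 10.25 in Terc+/+. The arrays did not overlap, and the difference was 1.34 (SE 0.27, adjusted p = 0.196).

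Genes of the nucleolus and of ribosome assembly had mostly higher means in Terc+/-. Of 55 measured members, 41 had the higher and 14 the lower mean, with a median difference of 0.17, against 0.0042 over all features and 51.3% of features with the higher mean. An unadjusted p under 0.05 with the higher mean was reached by 10 members and with the lower mean by 0, against 4.73% and 3.86% of all features, and 0 passed after adjustment. Leaving out each array gave 6 to 16 such members with the higher mean and 0 to 2 with the lower, and medians between 0.10 and 0.21. For the 49 members with a mean above 6 the median was 0.23, against 0.019 over all features above 6. Of those features, 8.14% had an unadjusted p under 0.05 with the higher mean and 6.38% with the lower. After Ncl and Nsun2, the smallest p belonged to Pes1, a ribosome assembly factor of the large subunit, with 9.78, 9.18 and 8.91 in Terc+/- and 8.52, 8.55 and 8.21 in Terc+/+ (0.87, SE 0.22, adjusted p = 0.281). Polr1e, a subunit of RNA polymerase I, differed by 0.46 (SE 0.13), and the arrays of both genes did not overlap. The list's array scores were 0.074, 0.081 and 0.039 in the Terc+/- arrays, and -0.065, -0.16 and -0.20 in the Terc+/+ arrays. All Terc+/- scores were above all Terc+/+ scores, and the lowest was again Terc+/+ replicate 3, without which the median was 0.10 and 36 members had the higher mean. Not every member followed: fibrillarin (Fbl), which methylates ribosomal RNA, gave -0.33 (SE 0.15).

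Neighbouring lists of RNA enzymes were more mixed. Among 45 measured RNA helicases of the DEAD and DEAH families, 30 had the higher and 15 the lower mean, with a median of 0.13, and 0.077 without Terc+/+ replicate 3 or 0.065 without Terc+/- replicate 2. An unadjusted p under 0.05 was reached by 6 with the higher mean, Ddx3x and Dhx32 (0.52, SE 0.13) among them, and by 2 with the lower mean, Ddx41 (-0.47, SE 0.11) and Ddx50 (-0.40, SE 0.14). These counts were 3 to 10 higher and 1 to 6 lower when each array was left out. Over all features, 4.73% reached this threshold with the higher mean and 3.86% with the lower. Among features with a mean above 6, these shares were 8.14% and 6.38%. Of 47 enzymes that modify transfer RNA and other RNA, 28 had the higher mean (median 0.051, and 0.036 to 0.087 when each array was left out). At an unadjusted p under 0.05, 8 were higher and 4 lower in mean, against 4.73% and 3.86% of all features. Leaving out each array gave 3 to 9 higher and 1 to 6 lower enzymes. Trmt2a, which methylates a uridine of transfer RNA, had 9.87, 9.32 and 9.73 in Terc+/-, against 9.04, 9.08 and 8.97 in Terc+/+ (0.61, SE 0.15). Its arrays did not overlap.

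**Figure D3:**
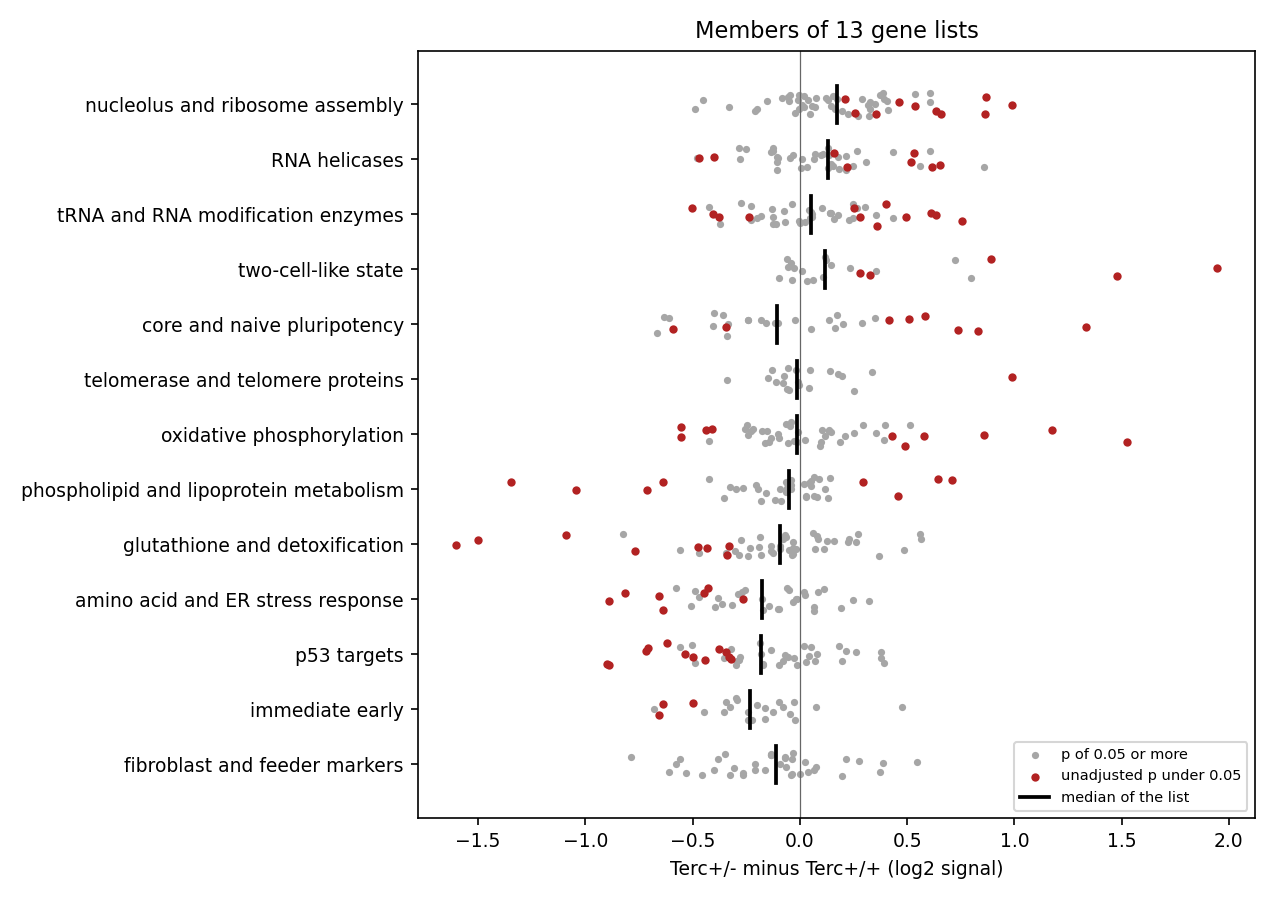
Each point is a measured member of 1 of 13 gene lists, placed at its mean log2 difference of Terc+/- minus Terc+/+ on the x axis, with vertical scatter added only to separate points. Red points have an unadjusted limma p under 0.05 and bars are list medians, which run between 0.17 for nucleolus and ribosome assembly and -0.23 for immediate early genes. No member of any list passed after adjustment over all features.

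Targets of the tumour suppressor p53, which is activated by DNA damage and by short telomeres, had mostly lower means in Terc+/-. Of 45 measured targets, 13 had the higher and 32 the lower mean, with a median of -0.18. An unadjusted p under 0.05 with the lower mean was reached by 12 and with the higher mean by 0, against 3.86% and 4.73% of all features. Among features with a mean above 6, these shares were 6.38% and 8.14%. Leaving out each array gave 7 to 13 lower and 0 to 2 higher targets, with medians between -0.25 and -0.18. The smallest p belonged to Abhd4, a lipase, with 8.29, 8.10 and 8.19 in Terc+/- and 8.78, 9.07 and 8.60 in Terc+/+ (-0.62, SE 0.13, adjusted p = 0.214). Apaf1, the core of the apoptosome, had 9.00, 9.28 and 9.36 in Terc+/-, against 9.72, 9.53 and 10.00 in Terc+/+ (-0.53, SE 0.14). Phlda3, an inhibitor of Akt, had 10.05, 9.60 and 9.79 in Terc+/- and 10.47, 10.85 and 10.78 in Terc+/+ (-0.89, SE 0.25). None of these 3 overlapped between the genotypes, nor did Tob1, an antiproliferative protein (-0.90, SE 0.25). The best known targets overlapped: Cdkn1a, the cell cycle inhibitor p21, had 11.44, 10.45 and 10.35 in Terc+/-, against 11.32, 11.85 and 10.53 in Terc+/+ (-0.49, SE 0.43), and Mdm2, the ubiquitin ligase of p53, gave -0.28 (SE 0.17). Cdkn1a ran between -0.84 without Terc+/+ replicate 3 and -0.18 without another array, and Mdm2 gave -0.42 without Terc+/+ replicate 3, both without passing the test. Within Terc+/- and within Terc+/+, the arrays ranked for Cdkn1a in the same order as for the feeder score. In Terc-/- they did not, with Cdkn1a at 10.84, 10.69 and 11.69 and feeder scores of -0.22, 0.056 and 1.15 in replicates 1, 2 and 3. The part of feeder RNA in the signals of p53 targets was not tested. The array scores of the p53 list were -0.033, -0.14 and -0.13 in Terc+/-, and 0.14, 0.088 and 0.068 in Terc+/+, without overlap. Its median was -0.18 without Terc+/+ replicate 3 as well. Genes of DNA damage signalling and repair had a median of 0.057 over 37 members. It was 0.012 without Terc+/+ replicate 2 and 0.086 without Terc+/- replicate 1. Rpa1, the large subunit of the single-strand binding protein RPA, had the smallest p among these genes (0.44, SE 0.08, adjusted p = 0.18).

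Stress and early response genes were also mostly lower in mean. For the amino acid and ER stress response, 28 of 37 measured members had the lower mean, with a median of -0.17, and 7 had an unadjusted p under 0.05, all with the lower mean. Leaving out each array gave 3 to 10 such members with the lower mean and 0 to 3 with the higher. Over all features, 3.86% reached this threshold with the lower mean and 4.73% with the higher. Among features with a mean above 6, these shares were 6.38% and 8.14%. Ddit3, the stress transcription factor CHOP, had 7.44, 7.73 and 7.48 in Terc+/- and 8.39, 8.71 and 7.99 in Terc+/+, without overlap (-0.81, SE 0.19, adjusted p = 0.248). Ddit4, an inhibitor of mTORC1, had 9.32, 10.58 and 10.18 in Terc+/-, against 10.88, 10.52 and 11.36 in Terc+/+, which overlapped (-0.89, SE 0.32). The list's median ran between -0.26 without Terc+/- replicate 2 and -0.091 without Terc+/+ replicate 1, and the scores of both genotypes overlapped. Immediate early genes, which cells switch on within minutes of a stimulus, had the lower mean in 22 of 24 members (median -0.23). Against 3.86% of all features, only 3 of the 24 reached an unadjusted p under 0.05 with the lower mean. These were Atf3 (-0.66, SE 0.24), which both lists hold, Dusp1 (-0.50, SE 0.21), which the p53 list holds too, and Junb (-0.64, SE 0.27). When each array was left out there were 0 to 5 such members, all with the lower mean. Their median was -0.15 without Terc+/+ replicate 3, and -0.35 without Terc+/- replicate 1.

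Enzymes of glutathione metabolism, peroxide removal and detoxification had the lower mean in 34 of 49 measured members, with a median of -0.091. Of the 49, 8 had an unadjusted p under 0.05 with the lower mean and 0 with the higher, against 3.86% and 4.73% of all features. Among features with a mean above 6, these shares were 6.38% and 8.14%. Leaving out each array gave 5 to 12 such members with the lower mean and 0 to 3 with the higher. Besides Gpx2 and Ephx2, glutathione transferases led. Gstm1 had 7.91, 8.13 and 7.92 in Terc+/-, against 8.86, 8.56 and 8.83 in Terc+/+ (-0.77, SE 0.13, adjusted p = 0.18), and Gstm6 gave -0.34 (SE 0.07). These transferases are close relatives whose probes may share targets, so the members may not be independent. Catalase (Cat) had 8.52, 8.48 and 8.28 in Terc+/- and 8.95, 9.08 and 8.67 in Terc+/+ (-0.47, SE 0.13). The arrays of these 3 genes did not overlap, whereas the array scores of the whole list did. Without Terc+/+ replicate 3, the median was -0.099, and 12 members had an unadjusted p under 0.05 with the lower mean and 3 with the higher.

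**Figure D4:**
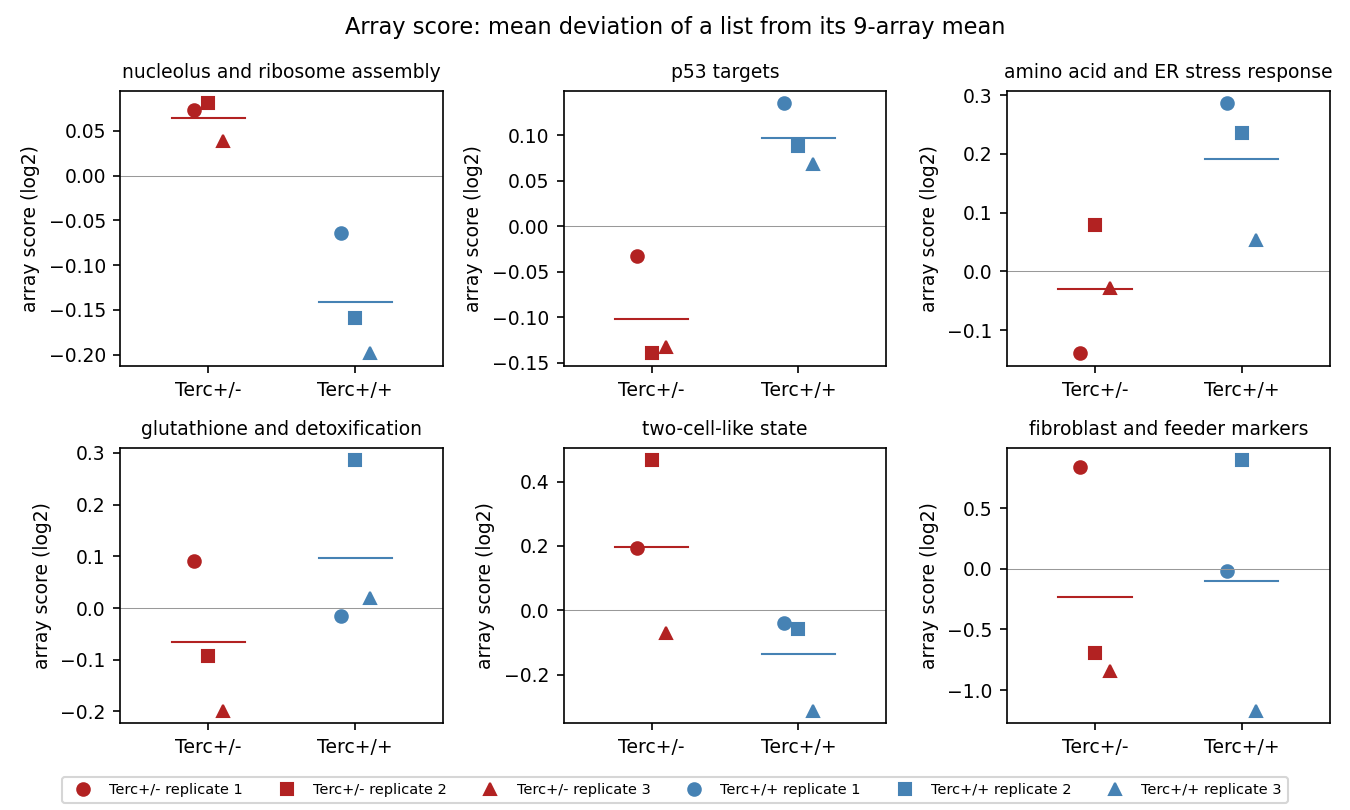
For 6 gene lists, each point is the score of 1 array, the mean log2 deviation of the list's measured members from their means over all 9 arrays, on a separate y scale for each list. Red points on the left are Terc+/- and blue points on the right Terc+/+, with the replicate by marker shape and lines at the means of 3 arrays. The genotypes do not overlap for the nucleolus and p53 lists, and they overlap for the other 4, with feeder scores between -1.17 and 0.90.

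Pluripotency genes had means on both sides. Of 30 measured core and naive factors, 13 had the higher and 17 the lower mean, with a median of -0.11, which turned to 0.076 without Terc+/+ replicate 1. Single members stood on both sides. With the higher mean, beside Lin28a and Gbx2, L1td1, an RNA-binding protein of stem cells, had 12.42, 11.96 and 12.08 in Terc+/- and 11.47, 11.07 and 11.42 in Terc+/+ (0.83, SE 0.15, adjusted p = 0.18). Sall4, a zinc finger factor that keeps Pou5f1 active, had 12.67, 12.64 and 12.73 in Terc+/-, against 12.36, 12.31 and 12.13 in Terc+/+ (0.42, SE 0.08, adjusted p = 0.18). Neither gene overlapped between the genotypes. Pou5f1, the core factor OCT4, had 12.10, 12.25 and 11.79 in Terc+/- and 12.14, 12.70 and 11.13 in Terc+/+, which overlapped, and its difference of 0.054 has a 95% interval of -0.79 to 0.90. Sox2 gave -0.24 (95% interval -1.04 to 0.56). Without Terc+/+ replicate 3, Pou5f1 gave -0.38 and Sox2 gave -0.51. The spread of Pou5f1 in Terc+/+ came from replicate 3, the lowest of the 3 arrays. Klf4, a naive factor induced by LIF, had 10.56, 10.64 and 10.27 in Terc+/-, against 11.82, 10.96 and 10.60 in Terc+/+ (-0.63, SE 0.30), and it overlapped.

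Genes of the two-cell-like state, a programme of the early embryo that a few cells of a stem cell culture express at a time, showed their largest values in certain Terc+/- arrays. Of 22 measured members, 16 had the higher and 6 the lower mean (median 0.12), against 51.3% of all features with the higher mean. An unadjusted p under 0.05 was reached by 5, all with the higher mean, against 4.73% of all features. There were 2 to 8 such members when each array was left out. Many of the 22 had means near the lowest deposited value of 5.11 and differed little, and the tally and median count these too. Zscan4c, of a family that acts in telomere lengthening by recombination in mouse stem cells, had 8.99, 9.71 and 6.95 in Terc+/-, against 7.28, 6.98 and 5.55 in Terc+/+. Terc+/- replicates 1 and 2 were above every Terc+/+ array, but replicate 3 was not, and the difference was 1.94 (SE 0.75, adjusted p = 0.509). Tcstv3 had 7.72, 8.81 and 6.76 in Terc+/- and 6.41, 6.72 and 5.70 in Terc+/+, barely without overlap (1.48, SE 0.51). In both genes Terc+/- replicate 3 and Terc+/+ replicate 3 were the lowest of their genotype. Both belong to families of near-identical genes, so the signal may come from several copies. Without Terc+/- replicate 2, the median of the list was 0.072. Eif1a (0.33, SE 0.10) and Dppa4 (0.28, SE 0.09), which most stem cells express, had smaller but more even differences.

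Telomerase and telomere genes had means on both sides of 0. Of 20 measured members, 8 had the higher and 12 the lower mean, with a median of -0.013. Tert had 5.42, 5.47 and 5.37 in Terc+/-, against 5.39, 5.46 and 5.28 in Terc+/+, and Dkc1 had 5.59, 5.34 and 5.37 in Terc+/- and 5.51, 5.47 and 5.48 in Terc+/+. Both probes were near the lowest deposited value, so these differences (0.048 and -0.050) say little about either gene. Nop10, which binds the telomerase RNA beside dyskerin and also serves ribosomal RNA modification, was the only member with an unadjusted p under 0.05. That threshold was reached by 4.73% of all features with the higher mean and by 3.86% with the lower, so 1 of 20 is near these shares. Nop10 had 11.82, 11.41 and 10.95 in Terc+/- and 10.16, 10.95 and 10.09 in Terc+/+, which touched at 10.95 (0.99, SE 0.34, adjusted p = 0.438). Its difference ran between 0.52 and 1.26 over the settings run. Tinf2 of the shelterin complex (-0.34, SE 0.23) and Pinx1, a nucleolar inhibitor of telomerase (0.34, SE 0.19), overlapped.

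Metabolic lists were divided. Of 46 measured genes of oxidative phosphorylation, 22 had the higher and 24 the lower mean (median -0.011, and -0.14 without Terc+/+ replicate 3). At an unadjusted p under 0.05, 6 were higher and 4 lower in mean, against 4.73% and 3.86% of all features. Leaving out each array gave 3 to 10 higher and 2 to 6 lower, and the median was 0.14 without Terc+/+ replicate 2. Within this list Uqcrb and Ndufa5, a subunit of complex I (10.56, 10.05 and 10.05 in Terc+/-, against 9.10, 9.49 and 8.54 in Terc+/+, 1.18, SE 0.29), lay on the higher side, and Uqcrc1, a core subunit of complex III, lay on the lower (-0.55, SE 0.14). Among 23 glycolysis genes the median was 0.063, and -0.0079 without Terc+/+ replicate 2. The glucose transporter Slc2a1 had 12.50, 12.97 and 12.70 in Terc+/- and 11.93, 11.57 and 12.47 in Terc+/+ (0.73, SE 0.24), and Pdk1, a kinase that holds back pyruvate oxidation, gave 0.61 (SE 0.18). Their arrays did not overlap and they lay opposite to Hk1. Phospholipid and lipoprotein genes had a median of -0.050 over 40 members (-0.0083 without Terc+/+ replicate 3). At an unadjusted p under 0.05, 4 were higher and 4 lower in mean, against 4.73% and 3.86% of all features. Gpd2, the mitochondrial glycerol phosphate dehydrogenase (0.46, SE 0.08), and Pcyt1b, of phosphatidylcholine synthesis (0.71, SE 0.16), lay opposite to Pltp and Agpat4.

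Lineage lists held single genes with sizeable mean differences. En2, a homeobox factor of the midbrain and hindbrain, had 8.88, 9.37 and 9.58 in Terc+/-, against 8.26, 7.85 and 8.51 in Terc+/+ (1.07, SE 0.24, adjusted p = 0.235). It was the only one of 18 neuroectoderm genes with an unadjusted p under 0.05. This count is near the shares of all features, 4.73% with the higher and 3.86% with the lower mean. Among Wnt targets, Lef1, a transcription factor of the pathway, had 6.35, 6.96 and 6.82 in Terc+/- and 5.99, 5.59 and 5.73 in Terc+/+ (0.94, SE 0.19, adjusted p = 0.191). The mean of the probes of Lef1 gave 0.37. Notum, a secreted inhibitor of Wnt proteins, gave 1.11 (SE 0.30), and 0.77 without Terc+/+ replicate 3. The list of 27 targets had a median of -0.018. Esam, an adhesion protein of endothelium, had 8.76, 8.52 and 8.01 in Terc+/-, against 7.29, 6.57 and 7.42 in Terc+/+ (1.34, SE 0.26, adjusted p = 0.184). In the same list of 15 endothelial genes, Vwf (-0.41, SE 0.12) and Eng (-0.53, SE 0.20) had the lower mean, and the median was 0.00075. Apoe, an apolipoprotein counted with the endoderm genes, had 10.13, 11.07 and 11.14 in Terc+/- and 12.02, 11.49 and 12.88 in Terc+/+ (-1.35, SE 0.45). Its difference was -0.97 without Terc+/+ replicate 3, its highest array. Of the 27 endoderm genes measured, 9 had the higher and 18 the lower mean (median -0.12), and the median ran between -0.27 without Terc+/- replicate 1 and -0.055 without Terc+/+ replicate 2.

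Of 16 measured genes of the macrophage and blood list, 5 had the higher and 11 the lower mean in Terc+/- (median -0.10, and -0.14 to -0.070 when each array was left out). An unadjusted p under 0.05 was reached by 2, both with the lower mean and without overlap, against 3.86% of all features. These were Cd14 (-0.31, SE 0.11) and Spi1 (-0.34, SE 0.12). Both were dim, with means of 6.1 and 5.78 in Terc+/- and 6.41 and 6.12 in Terc+/+, near the array median of 5.94. The brighter members overlapped. The lysozyme gene Lyz1 had 10.03, 8.59 and 8.19 in Terc+/-, against 9.74, 9.89 and 10.45 in Terc+/+ (-1.09, SE 0.56), and Lyz2 gave -0.86 (SE 0.44). Laptm5, a lysosomal protein of blood cells, had 12.32, 11.48 and 12.23 in Terc+/- and 12.69, 13.02 and 11.81 in Terc+/+ (-0.50, SE 0.34). The array scores of the list were 0.036, -0.18 and -0.16 in Terc+/-, and 0.033, 0.10 and 0.17 in Terc+/+. The part of such cells in the other results was not tested. Feeder markers had no member with an unadjusted p under 0.05 (0 of 38), and their median of -0.11 swung between -0.70 without Terc+/- replicate 1 and 0.42 without Terc+/+ replicate 2.

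No gene passed the test between Terc-/- and Terc+/- cells. With limma, 0 of 18666 features (0%) were called between Terc-/- and Terc+/-, the smallest adjusted p was 1.00, and 328 (1.76%) had an unadjusted p under 0.05. For the 30 leading genes, Terc-/- minus Terc+/- lay between -0.25 and 0.36, and 5 of them had an unadjusted p under 0.05. Ncl averaged 10.98 ± 0.19 in Terc-/- and 10.86 ± 0.13 in Terc+/- (SD, n = 3 each), and Gpx2 averaged 8.26 ± 0.24 in Terc-/- and 8.01 ± 0.12 in Terc+/-. Fhit had the smallest p of these, at 6.65 ± 0.04 in Terc-/- and 6.28 ± 0.10 in Terc+/- (a difference of 0.36). Zscan4c averaged 7.23 ± 0.66 in Terc-/- and 8.55 ± 1.43 in Terc+/-, a difference of -1.32, within the spread of the Terc+/- arrays, and Uqcrb differed by -0.67. The genes were chosen in Terc+/- arrays that this difference uses again, and a missed threshold does not show that the genotypes are alike.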

How the data were processed

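Expression was measured on Illumina bead arrays of mouse ntESCs, with 3 arrays each of Terc+/-, Terc+/+ and Terc-/-. The values used are log2 values that the authors deposited, with 1 value for each probe on each array. Neither the software nor the background correction is given in the sources used here. All 9 columns have a median of 5.94 and run between 5.11 and 14.82. The base was read from the values, since the highest is a signal of 28835 in base 2, and 2718301 in the natural base, above a scanner's limit of 65536. A deposited table of raw signals has 18 columns that name no sample, and it was not used.

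Of 25697 probes, 23141 had 1 gene symbol in the platform annotation, 2556 had none and 0 had several. All 23141 were matched by Entrez identifier to RefSeq assembly GRCm38.p6, which changed 0 symbols. The probe with the highest mean over 9 arrays stood for each of 16110 genes, of which 4507 had more than 1 probe, and the unnamed probes were kept, giving 18666 features. The 3 genotypes were fitted together (limma version 3.58.1 under R 4.3.3, moderated statistics, two-sided, 6 residual and 2.03 prior degrees of freedom), with Benjamini-Hochberg adjustment over all features and a threshold of 0.05. The fit was tested on simulated data. All gene p-values and intervals come from limma.

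Named genes were the 15 of smallest p in each direction, the 5 largest mean differences each way without overlap and with an unadjusted p under 0.05, up to 4 members of smallest p from each of 34 gene lists, and the genes Tert, Dkc1, Pou5f1, Sox2, Zscan4c, Cdkn1a, Mdm2, Xist and Eif2s3y. Trp53 was not measured. The members and lists were chosen with earlier results of these data known, so they support nothing by themselves. Fbl, Klf4, Cat, Laptm5, Actg1 and Cnn2 were named after their values were seen. Replicate numbers were checked for pairing: samples of Terc+/- and Terc+/+ with the same number correlated at -0.017, -0.25 and 0.45 in their deviations, so they were not treated as pairs.

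The alternatives were the arrays in the fit, the variance model, array quality weights, cyclic loess, median centring, a mean above 6, every probe or the mean of a gene's probes, a minimum fold of 1.2, a replicate block, the feeder score as a covariate, and leaving out each array.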

Additional observations from a re-analysis of the deposited data

How the results depend on the processing

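In Terc+/- against Terc+/+, the count of 0 called genes depended on the settings. It was 643 with array quality weights (325 higher and 318 lower), which gave Terc+/+ replicate 3 a weight of 0.214 and Terc+/+ replicate 1 a weight of 7.01, and 187 with the feeder score as a covariate (75 higher and 112 lower). Leaving out single arrays gave 0 to 28 calls, with the 28 (11 higher and 17 lower) reached without Terc+/+ replicate 3. Under the other alternatives run, the count stayed at 0. Of the 30 leading genes, 30 were called with quality weights, 29 with the feeder covariate, 5 without Terc+/+ replicate 3 (Osm, Cited2, Agpat4, Lin28a and Ephx2), and 0 in each other setting, and 0 changed sign. These genes were chosen by smallest p in the same arrays, which favours both a kept sign and calls in other settings. With the replicate number as a replicate block, 0 genes were called and 1398 features had an unadjusted p under 0.05. Pou5f1 turned to -0.090 with quality weights, -0.38 without Terc+/+ replicate 3 and -0.047 without Terc+/- replicate 2. Without single arrays Pou5f1 ran between -0.38 and 0.41, Sox2 between -0.51 and 0.12, Xist between -0.26 and 0.093, and Tert between -0.00096 and 0.091. Sox2 turned to 0.0016 with the mean of a gene's probes and 0.12 without Terc+/+ replicate 1, Xist to 0.093 without Terc+/+ replicate 2, and Tert to -0.00096 without Terc+/+ replicate 3. The cause of these turns was not tested. Between Terc-/- and Terc+/-, 0 genes were called in every setting run. Over all lists and settings, 591 list medians moved by less than the spread between arrays and 21 by more.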

Other observations

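Genes of other lists had mean differences without passing the test. Phlda1, a feedback gene of FGF and ERK signalling, had log2 signals of 9.01, 8.82 and 8.28 in Terc+/-, against 9.94, 9.97 and 9.84 in Terc+/+, without overlap (-1.21, SE 0.30, adjusted p = 0.268). Dusp4, a phosphatase that switches ERK off, gave -0.55 (SE 0.14), and the list of 23 had a median of -0.055. Dio3, an imprinted gene whose enzyme inactivates thyroid hormone, had 5.88, 6.21 and 6.21 in Terc+/- and 6.76, 6.85 and 7.57 in Terc+/+ (-0.96, SE 0.20, adjusted p = 0.214), and -0.70 without Terc+/+ replicate 3. The imprinted list of 28 had a median of -0.055, which was -0.11 without Terc+/+ replicate 2 and 0.030 without Terc+/+ replicate 3. Tex11, a meiotic gene of the germline list, had 8.00, 8.00 and 8.40 in Terc+/-, against 7.53, 7.22 and 7.56 in Terc+/+ (0.70, SE 0.16, adjusted p = 0.227). In the keratinocyte list, Krt17 gave -0.72 (SE 0.16). Neither Dio3, Tex11 nor Krt17 overlapped between the genotypes. Among cell cycle genes (median 0.080 over 32), Ccne1, which drives entry into S phase, gave 0.34 (SE 0.11), and Ccnd3, a cyclin of G1 phase, gave -0.32 (SE 0.11).

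Genes with the smallest p without Terc+/+ replicate 3 were named after their values were seen. Ina, a neuronal intermediate filament protein, gave 1.47 (SE 0.10), Mme, the peptidase neprilysin, gave -1.27 (SE 0.10), and Cmtm7 gave -1.30 (SE 0.10), each with an adjusted p of 0.0186 from limma. With all arrays, Ina gave 1.10 (SE 0.27, adjusted p = 0.268), Mme gave -0.98 (SE 0.22, adjusted p = 0.227) and Cmtm7 gave -1.01 (SE 0.22, adjusted p = 0.227). Of 8 measured sex-linked genes, 0 had an unadjusted limma p under 0.05, against 8.59% of all features in either direction. With 8 genes, a count of 0 does not show that the genotypes are alike. Xist averaged 5.72 ± 0.19 in Terc+/- and 5.84 ± 0.37 in Terc+/+, near the lowest values, and the Y-linked Eif2s3y averaged 9.95 ± 0.45 in Terc+/- and 9.64 ± 0.62 in Terc+/+ (SD, n = 3 each). Without Terc+/+ replicate 3, the difference of Xist was -0.26 and that of Eif2s3y was 0.65.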
